A study of Mus musculus with 16 samples.

Results

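The MOR28 cluster is a run of odorant receptor genes on mouse chromosome 14 that lies beside the H element, an enhancer of receptor genes. Its members were all probesets of chromosome 14 whose gene symbol runs from Olfr1507 to Olfr1513, with pseudogenes left out. This gave 7 of the 22206 gene probesets on the array and 7 of its 1081 odorant receptor probesets, with 1 probeset per gene. All 7 genes were found in RefSeq. There the order along the chromosome is Olfr1513, Olfr1512, Olfr1511, Olfr1510, Olfr1509, Olfr1508 and Olfr1507, with a receptor pseudogene, Gm4742, between the outer pair and a segment of the T cell receptor alpha locus between Olfr1510 and Olfr1509. The older names of the genes at the H side are MOR28 for Olfr1507, MOR10 for Olfr1508 and MOR83 for Olfr1509.

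A mature olfactory sensory neuron transcribes a single allele of a single odorant receptor gene. The receptor RNA of a sorted fraction therefore depends on which neurons are in it and on how much each of them holds. Enhancers spread over many chromosomes take part in this choice, and H was the first of them to be described. Deletion of H in mice lowers the receptors next to it, MOR28, MOR10 and MOR83, while genes farther along the cluster depend on it less. MOR28 is expressed in neurons of the ventral part of the epithelium, and Olfr1509, also called MOR244-3, responds to (methylthio)methanethiol, a volatile of male mouse urine.

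The mice carried the S100a5-tauGFP reporter, in which green fluorescent protein (GFP) follows S100a5, a gene that olfactory neurons express when they are active. All groups shared this reporter, and there was no group without it. Mice of both sexes, 24 in all and 7 to 12 weeks old, were kept singly for 40 h in clean air, and in the last 14 h received 10 s pulses of an odorant or of filtered air (vehicle) every 20 min. The odorant is bourgeonal in the sample labels and indole in the series title, so it is called the odorant here. Dissociated olfactory mucosa of 3 mice was pooled and sorted into GFP+ and GFP- cells, giving 4 arrays in each of 4 groups: vehicle GFP+, vehicle GFP-, odorant GFP+ and odorant GFP-. At 3 mice a pool the 24 mice make 8 pools, so 2 arrays of the same treatment and number were taken as the fractions of 1 pool. Unless a block is named, the p-values below measure the spread between the arrays of a group, each from a different pool. They treat the 2 fractions of a pool as independent. Fits with a block, where named, compare arrays within a pool or replicate number.

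The fractions differed in overall signal. On the 8 GFP+ arrays 46.7% to 48.4% of gene probesets lay above the background level, and on the 8 GFP- arrays 49.9% to 50.9%. The median over all gene probesets was 6.29 to 6.38 on GFP+ and 6.64 to 6.76 on GFP- arrays, so the fractions did not overlap in either measure, and the effect of removing this median is given with the counts below. The background level was taken from probesets with no target in the mouse and ran from 6.57 to 6.87 on the log2 scale. Omp, the marker of mature olfactory neurons, was at 18.53 to 18.75 on all 16 arrays, and S100a5 was higher in GFP+ cells (difference 1.04, SE 0.13, limma adjusted p = 6.6e-06). The 2 pools numbered 4 stood apart: the Y-linked gene Eif2s3y, which was singled out after its values were seen, was at 2.63 to 3.41 on their 4 arrays and at 9.95 to 11.17 on the other 12. Results that rest on these pools are given with and without them. Markers of other cells also differed between the fractions and are described below the receptors.

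RefSeq gave the 250 bases before the annotated start for 5 of the 7 genes (build GRCm38.p6), and not for Olfr1507 or Olfr1512. The windows of Olfr1508 and Olfr1509 are printed because these H-side genes varied together between pools (r = 0.73). Olfr1510 and Olfr1512 did so more closely (r = 0.95), but Olfr1512 had no window. A link between these sequences and the variation between pools was not tested. The Olfr1508 window is chr14:52467462-52467711 on the minus strand and that of Olfr1509 is chr14:52450143-52450392 on the plus strand, both upstream of the annotated transcript start. Both are written 5′ to 3′ along the gene, with matches to TAATNA on either strand in capitals, a letter pattern bound by homeodomain proteins such as Lhx2.
Olfr1508: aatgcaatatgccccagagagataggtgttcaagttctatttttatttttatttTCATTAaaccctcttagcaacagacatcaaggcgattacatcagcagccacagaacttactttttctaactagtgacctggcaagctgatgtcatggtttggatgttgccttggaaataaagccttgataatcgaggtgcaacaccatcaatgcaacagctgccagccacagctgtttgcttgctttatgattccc
Olfr1509: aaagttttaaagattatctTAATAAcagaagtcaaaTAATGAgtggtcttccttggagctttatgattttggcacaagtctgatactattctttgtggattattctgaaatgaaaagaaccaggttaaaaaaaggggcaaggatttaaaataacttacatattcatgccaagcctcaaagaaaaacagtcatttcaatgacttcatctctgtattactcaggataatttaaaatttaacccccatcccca
The Olfr1508 window held 1 match, 196 bases before the start, and the Olfr1509 window 2, at 231 and 214 bases. The Olfr1510 window (chr14:52410928-52411177, minus strand) held 1, at 101 bases. None was found in the windows of Olfr1511 and Olfr1513, whose annotated starts are their start codons, so these windows may not reach the promoter. TAATNA occurred in 63.9% of 945 odorant receptor windows and in 24.3% of all 32851 windows of this length. CCCNNGGG, the core of the site bound by Ebf proteins, was in none of the 5 windows, in 2.75% of receptor windows and in 11.8% of all. A match describes the letters of a window and is not a binding site, and the lack of one says only that the letters are not there.

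The sort of GFP+ from GFP- cells split the cluster, and the split ran through the genes nearest H. Olfr1507 was far lower in GFP+ cells and Olfr1509 far higher, in every pool of both treatments. Olfr1511 and Olfr1512 were higher in GFP+ cells by a smaller amount, and Olfr1508 was higher over both treatments. Olfr1510 and Olfr1513 did not pass the test in any of the 3 comparisons of the fractions. In these sorted samples a lower signal from fewer neurons of a kind and from less RNA per neuron cannot be told apart.

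**Figure D1:**
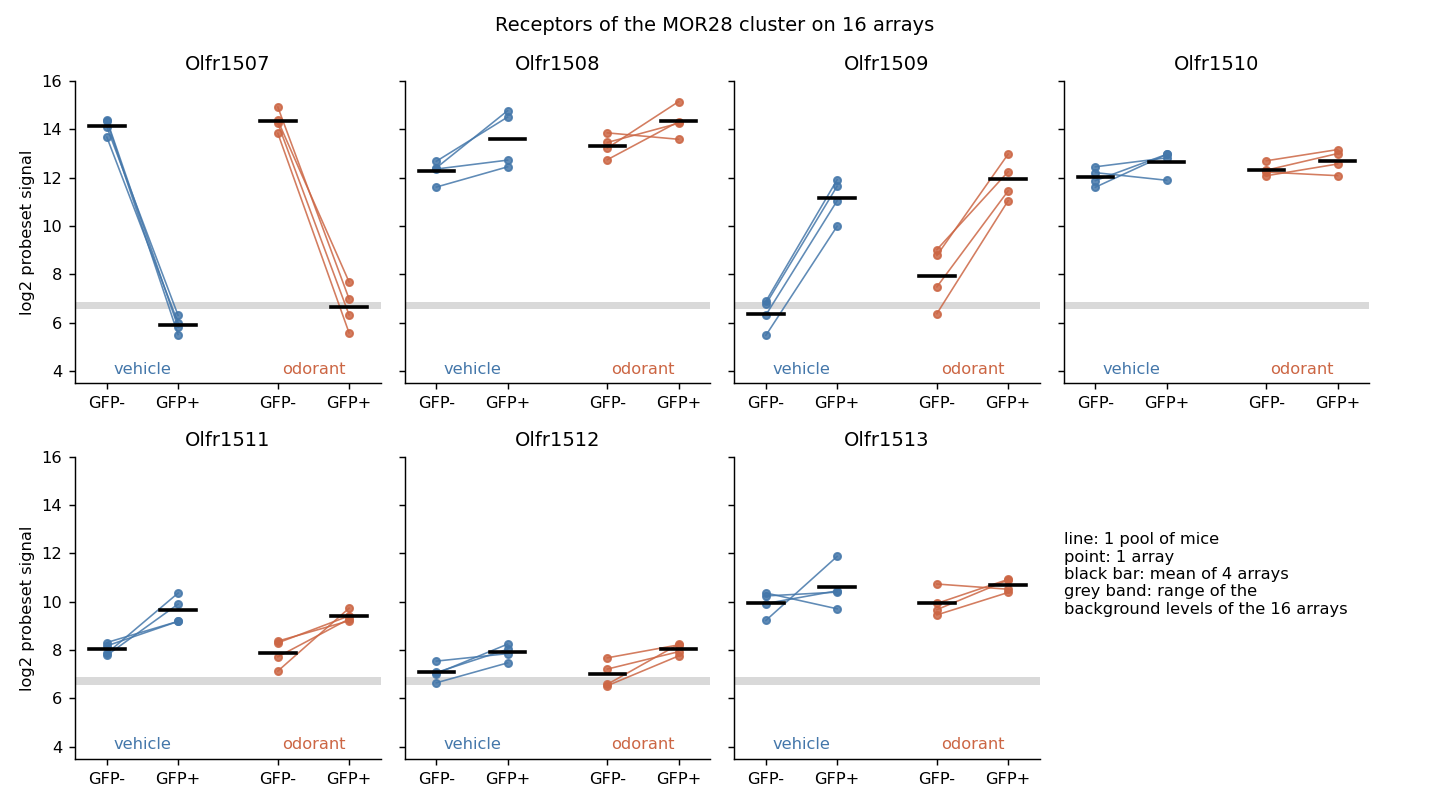
Log2 probeset signal of each of the 7 receptors (vertical axis) in GFP- and GFP+ cells of vehicle and odorant mice. Points are arrays, lines join the fractions of 1 pool of 3 mice, black bars are means of 4 arrays and the grey band is the range of background levels (6.57 to 6.87). The lines of Olfr1507 fall and those of Olfr1509 rise in all 8 pools.

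Olfr1507 (MOR28), the gene nearest H, was bright in GFP- cells and at or near background in GFP+ cells. In vehicle mice it was at 14.40, 13.68, 14.34 and 14.11 (log2 signal, pools 1 to 4) in GFP- cells and at 5.82, 6.0, 5.51 and 6.31 in GFP+ cells. In odorant mice it was at 14.37, 14.93, 13.84 and 14.25 in GFP- cells and at 7.69, 6.99, 5.58 and 6.33 in GFP+ cells. The fractions did not overlap, and none of the vehicle GFP+ arrays and 2 of the 4 odorant GFP+ arrays exceeded background. The difference, GFP+ minus GFP-, was -8.22 in vehicle mice (SE 0.21, limma adjusted p = 1.6e-08) and -7.70 in odorant mice (SE 0.40, adjusted p = 3.2e-07). As the GFP+ means were not above background, these are falls of at least 178-fold and at least 162-fold. The order of its 4 groups was odorant GFP- (14.35 ± 0.45, SD, n = 4), vehicle GFP- (14.13 ± 0.33), odorant GFP+ (6.65 ± 0.90) and vehicle GFP+ (5.91 ± 0.33). The values of vehicle GFP- and odorant GFP+ cells did not overlap, while the steps between treatments within a fraction did not pass the test.

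Olfr1509 (MOR83), the third gene from H, which is read from the opposite strand, went the other way. In vehicle mice it was at 11.92, 9.99, 11.65 and 11.05 in GFP+ cells and at 6.89, 5.48, 6.77 and 6.32 in GFP- cells. In odorant mice it was at 12.97, 11.45, 11.05 and 12.25 in GFP+ cells and at 8.78, 7.48, 6.38 and 9.03 in GFP- cells. Every GFP+ array was above every GFP- array of its treatment, and 2 of 4 vehicle and 3 of 4 odorant GFP- arrays exceeded background. The difference was 4.79 in vehicle mice (SE 0.42, limma adjusted p = 2.4e-05), a rise of at least 20.9-fold, and 4.01 in odorant mice (SE 0.57, adjusted p = 6.2e-04), a rise of 16.2-fold. Taken within pools it ran from 3.22 to 5.03 with a median of 4.59. Over both treatments it was 4.40 (SE 0.39, limma adjusted p = 1.3e-07). The order of its groups was odorant GFP+ (11.93 ± 0.86), vehicle GFP+ (11.15 ± 0.85), odorant GFP- (7.92 ± 1.23) and vehicle GFP- (6.36 ± 0.64). The steps between treatments did not pass the test, and the values of vehicle GFP+ and odorant GFP- cells, which were not tested against each other, did not overlap.

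Olfr1508 (MOR10) lies between these genes and was bright in both fractions. In vehicle mice it was at 14.77, 12.45, 14.51 and 12.73 in GFP+ cells and at 12.41, 11.61, 12.68 and 12.36 in GFP- cells. In odorant mice it was at 15.15, 14.25, 14.32 and 13.59 in GFP+ cells and at 13.23, 13.46, 12.75 and 13.86 in GFP- cells. The fractions overlapped in both treatments, and odorant pool 4 was the 1 pool of 8 with a lower value in GFP+ cells. The difference was 1.35 in vehicle mice (SE 0.50, limma adjusted p = 0.093) and 1.01 in odorant mice (SE 0.32, adjusted p = 0.073), short of the threshold of 0.05 in each. With the replicate number as a block, which compares the fractions within a pool, limma gave vehicle mice an SE of 0.32 and an adjusted p of 0.028 (7.57% of all probesets higher and 10.1% lower under the block), and odorant mice an adjusted p of 0.10. Over all 16 arrays the difference was 1.18 (SE 0.32, limma adjusted p = 0.012), a rise of 2.26-fold. Without odorant pool 4, the pool of opposite sign, the call was also made in odorant mice alone (difference 1.43, limma adjusted p = 0.015). With single odorant pools left out, limma's adjusted p ran from 0.015 to 0.28. The order of the groups was odorant GFP+ (14.33 ± 0.64), vehicle GFP+ (13.61 ± 1.19), odorant GFP- (13.32 ± 0.46) and vehicle GFP- (12.27 ± 0.46), and no neighbours in this order passed the test where one was run; vehicle GFP+ was not tested against odorant GFP-. All 3 H-side genes belong to the same receptor subfamily, and probe sequences were not used here. In vehicle GFP+ cells Olfr1507 was below background on 4 of 4 arrays while Olfr1508 was at 12.45 or more. In GFP- cells both were bright, Olfr1507 at 13.68 to 14.93 and Olfr1508 at 11.61 to 13.86. Whether Olfr1507 RNA adds to the Olfr1508 signal there was not tested.

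Beyond the T cell receptor segment, Olfr1511 showed the clearest rise. It was at 9.90, 9.19, 9.19 and 10.36 in GFP+ cells of vehicle mice and at 7.79, 8.31, 8.18 and 7.87 in their GFP- cells. In odorant mice it was at 9.21, 9.29, 9.42 and 9.74 in GFP+ cells and at 8.37, 7.72, 8.30 and 7.13 in GFP- cells. The fractions were fully apart in both treatments. The rise was 3.08-fold in vehicle mice (difference 1.62, SE 0.27, limma adjusted p = 0.0016) and 2.89-fold in odorant mice (difference 1.53, SE 0.26, adjusted p = 0.0023). The GFP+ groups (vehicle 9.66 ± 0.57, odorant 9.41 ± 0.23) stood above the GFP- groups (vehicle 8.04 ± 0.25, odorant 7.88 ± 0.58), with no called step between treatments and no overlap of odorant GFP+ with vehicle GFP- values.

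Olfr1512 was the dimmest member of which most arrays were above background. In GFP+ cells it was at 8.25, 7.47, 7.85 and 8.04 with vehicle and at 7.76, 8.24, 8.22 and 7.93 with odorant. In GFP- cells it was at 7.03, 6.65, 7.55 and 7.07 with vehicle and at 6.53, 6.59, 7.68 and 7.22 with odorant. GFP+ was higher in 8 of 8 pools, and 5 of the 8 GFP- arrays exceeded background. The rise was 1.77-fold in vehicle mice (difference 0.83, SE 0.22, limma adjusted p = 0.026) and 2.05-fold in odorant mice (difference 1.03, SE 0.25, adjusted p = 0.021). These calls were not kept with fewer pools: limma's adjusted p was 0.14 without vehicle pool 1, 0.10 without vehicle pool 4, 0.069 without odorant pool 1, 0.13 without odorant pool 2 and 0.066 without odorant pool 4. With single pools left out the difference stayed between 0.70 and 1.00 in vehicle mice and between 0.83 and 1.20 in odorant mice. Over both treatments the difference was 0.93 (SE 0.18, limma adjusted p = 6.9e-04) and the call held without any single pool. Its GFP+ groups (odorant 8.04 ± 0.23, vehicle 7.90 ± 0.33) stood above its GFP- groups (vehicle 7.08 ± 0.37, odorant 7.00 ± 0.55).

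The remaining members were expressed in both fractions. Olfr1510 was at 12.97, 11.90, 12.82 and 12.96 in GFP+ cells of vehicle mice, at 11.88, 12.21, 12.45 and 11.61 in their GFP- cells, and with odorant at 12.09, 12.57, 13.16 and 13.00 in GFP+ and 12.23, 12.08, 12.70 and 12.31 in GFP- cells. Its 4 group means, from odorant GFP+ (12.70 ± 0.48) through vehicle GFP+ (12.66 ± 0.52) and odorant GFP- (12.33 ± 0.26) to vehicle GFP- (12.04 ± 0.37), were not separated by any test run; vehicle GFP+ and odorant GFP- were not tested against each other. The difference over both treatments was 0.50 (95% interval 0.096 to 0.90, limma adjusted p = 0.065), and limma's adjusted p was 0.016 without vehicle pool 2 and 0.044 without odorant pool 1. These were the pools in which Olfr1510 was lower in GFP+ cells (-0.32 and -0.15). Without both pools numbered 4 limma's adjusted p was 0.34. Olfr1513, at the far end of the cluster, was at 10.40, 10.45, 9.71 and 11.88 in GFP+ and 10.24, 9.93, 10.36 and 9.23 in GFP- cells of vehicle mice. In odorant mice it was at 10.38, 10.93, 10.52 and 10.90 in GFP+ and 9.46, 9.93, 10.73 and 9.67 in GFP- cells. Its group means ran from odorant GFP+ (10.68 ± 0.27) and vehicle GFP+ (10.61 ± 0.91) to odorant GFP- (9.95 ± 0.56) and vehicle GFP- (9.94 ± 0.51), again with no step called and the middle one not tested. Its difference over both treatments was 0.70 (95% interval 0.14 to 1.26, limma adjusted p = 0.062), and limma's adjusted p was 0.018 without vehicle pool 3 and 0.036 without odorant pool 3. These were the pools in which Olfr1513 was lower in GFP+ cells (-0.65 and -0.22). Without both pools numbered 4 limma's adjusted p was 0.38. Its difference in vehicle mice, 0.67, was 0.0094 without vehicle pool 4.

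**Figure D2:**
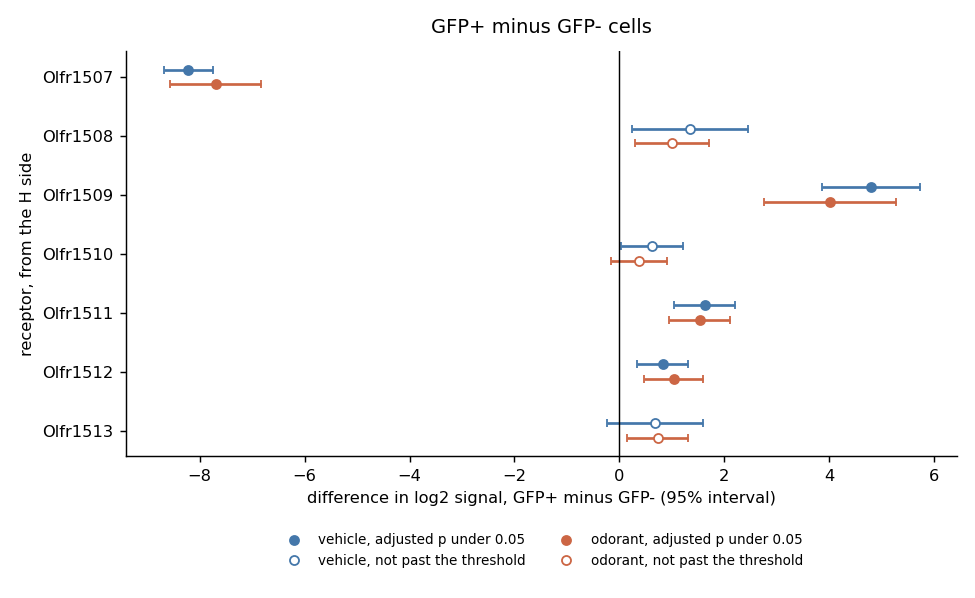
Difference in log2 signal between GFP+ and GFP- cells (horizontal axis) for each receptor, listed from the gene nearest H, with 95% intervals from limma on 4 against 4 arrays. Filled points passed an adjusted p of 0.05. Olfr1507 lies at -8.22 and -7.70, Olfr1509 at 4.79 and 4.01, and the other members between 0.37 and 1.62.

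In vehicle mice 3 of the 7 members were called higher in GFP+ cells (Olfr1509, Olfr1511 and Olfr1512) and 1 lower (Olfr1507), against 7.76% of all gene probesets called higher and 9.97% called lower. In odorant mice the counts were also 3 higher and 1 lower, of the same genes, against 3.57% and 7.84%. Over both treatments, which reuse these arrays, 4 were higher and 1 lower, against 13.4% and 12.3%. Groups that did not overlap were found for 2 members higher and 1 lower in vehicle mice (background 11.9% and 11%) and for 3 higher and 1 lower in odorant mice (7.86% and 9.07%). The median difference of the 7 members over both treatments was 0.93, against 0.096 for all gene probesets. After subtraction of each array's median all 7 members passed in each comparison of the fractions, 6 of them higher and 1 lower. Under that scaling 46.7% of all probesets were higher and 7.6% lower in vehicle mice, 34.9% and 6.84% in odorant mice, and 68.1% and 8.7% over both treatments, where the median of all probesets moved to 0.44. Relative to that median, Olfr1510 differed by 0.40 and Olfr1513 by 0.61 over both treatments, with and without the subtraction.

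Odorant receptors as a whole were pulled apart by the sort, and the counts above are read against them. Over both treatments 41.7% of the 1081 receptor probesets were higher and 30.2% lower, with a median difference of 0.30. The other 32 receptor probesets of chromosome 14 had 17 higher and 8 lower, with a median of 1.42 and a range from -6.42 to 3.79. Olfr1507, at -7.96 over both treatments, lay below that range and Olfr1509, at 4.40, above it. The other 5 members lay between 0.50 and 1.58, inside it. As a share, 4 of 7 members called higher is near the 17 of 32 of the other receptors of the chromosome.

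**Figure D3:**
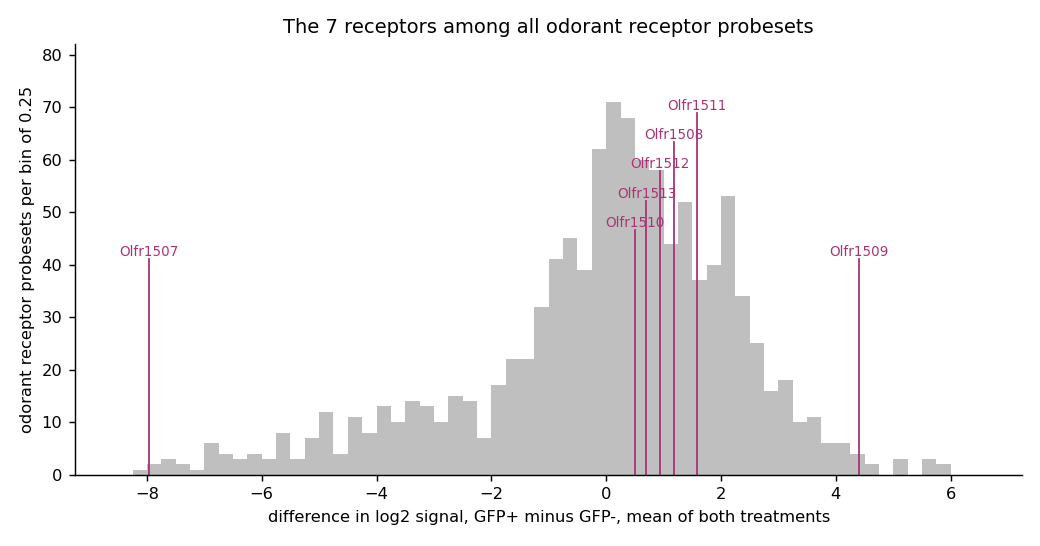
Number of odorant receptor probesets (vertical axis) by difference in log2 signal between GFP+ and GFP- cells, mean of both treatments, in bins of 0.25 (horizontal axis), including receptors at background. Lines mark the 7 receptors of the cluster, with Olfr1507 at -7.96 and Olfr1509 at 4.40 in the tails and the other 5 between 0.50 and 1.58.

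The pools varied more for some members than for others. In GFP- cells of odorant mice Olfr1509 had an SD of 1.23, larger than in 99.4% of the 802 receptors above background there, whose median was 0.46. In GFP+ cells of vehicle mice Olfr1508 had an SD of 1.19, larger than in 95.4% of 779 receptors. For Olfr1509 the 2 fractions of a pool moved together: after centring on group means both lay on the same side in 8 of 8 pools (r = 0.89, rho = 0.83, n = 8 pools, r = 0.78 without the 2 pools farthest from the median). The GFP- values of Olfr1509 were below background in vehicle pools 2 and 4 and in odorant pool 3 (5.48, 6.32 and 6.38). Its spread in GFP- cells and its r between fractions rest in part on such values. Both fractions of a pool share its mice and its dissociation. With the replicate block the SE of the Olfr1509 difference was 0.15 in place of 0.42 in vehicle mice and 0.23 in place of 0.57 in odorant mice. For Olfr1508 the fractions lay on the same side in 4 of 8 pools (r = 0.28), and for the other members in 2 to 4 of 8.

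**Figure D4:**
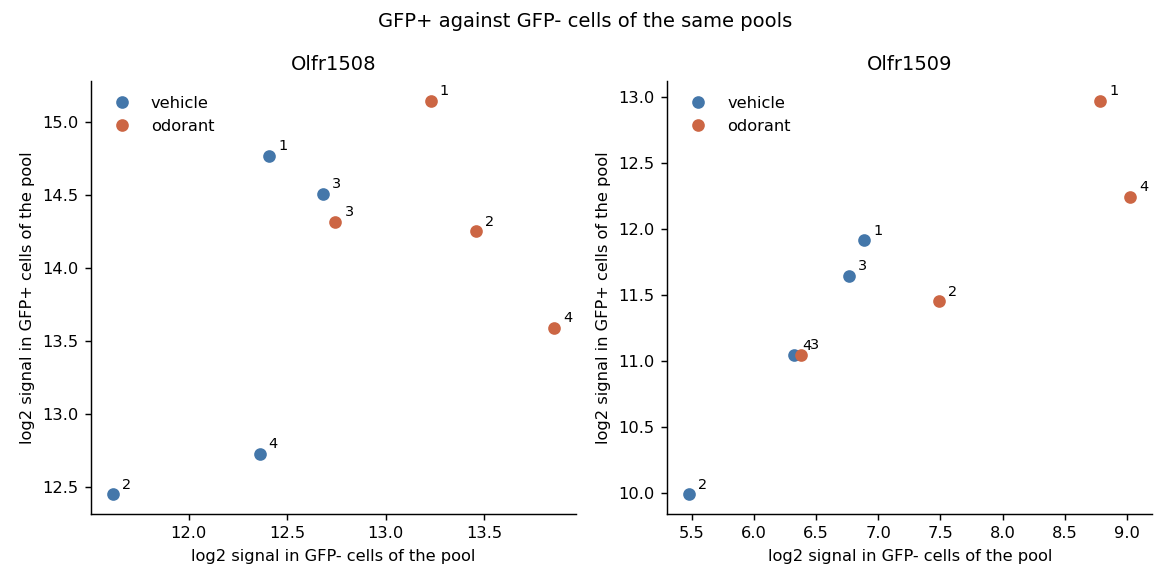
Log2 signal in GFP+ cells (vertical axis) against GFP- cells (horizontal axis) of the same pool for Olfr1508 and Olfr1509, with pool numbers beside the points. For Olfr1509 the pools low in GFP- cells are low in GFP+ cells (r = 0.89 after centring on group means), whereas the points of Olfr1508 are scattered (r = 0.28). Some GFP- values of Olfr1509 lie below background.

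Olfr1508 and Olfr1509, neighbours in the cluster, also varied together. Averaged over both fractions and centred, their pool values had r = 0.73 (rho = 0.57, n = 8 pools, 0.63 without the 2 farthest pools). Vehicle pool 2 was low for both genes, by -0.91 and -1.02, and vehicle pools 1 and 3 were high for both, by 0.65 each for Olfr1508 and by 0.64 and 0.45 for Olfr1509. Olfr1510 and Olfr1512, on the other side of the T cell receptor segment, had r = 0.95 (rho = 0.90, n = 8 pools, 0.88 without the 2 farthest). These r values describe points that share pools and arrays, and were the highest of 21 pairs. Other pairs ran against each other: the lowest r were -0.75 for Olfr1507 with Olfr1510, and -0.60 for Olfr1507 with Olfr1512 and for Olfr1509 with Olfr1513. The averages of Olfr1507 include its GFP+ values at or near background. Those of Olfr1509 include GFP- values at or near background, such as 5.48 in vehicle pool 2.

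The pools numbered 4, with the low Eif2s3y signal, were extreme for several members. Their within-pool differences were -0.27 and 0.37 for Olfr1508, below the 0.79 to 2.36 of the other 6 pools. For Olfr1511 they were 2.49 and 2.60, above 0.84 to 2.12, and for Olfr1513 1.23 and 2.65, above -0.65 to 1.00. Without both pools, an alternative chosen after the data were seen, limma gave Olfr1508 a difference over both treatments of 1.55 (SE 0.36, adjusted p = 0.0068), Olfr1511 1.25 (SE 0.17, adjusted p = 9.2e-05) and Olfr1513 0.29 (SE 0.21, adjusted p = 0.38). Olfr1507 (-7.99) and Olfr1509 (4.54) hardly moved. The part of the mice's sex in these values was not tested.

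Whether the odorant changed the receptors of the cluster was asked within each fraction. No member passed in either, and neither did any other gene: limma called 0 of 22206 probesets in GFP+ cells (0%), where 3.82% had an unadjusted p under 0.05, and 0 in GFP- cells (0%), where 6.84% did. In GFP+ cells 0 of 7 members had an unadjusted p under 0.05 in this fit, which has no block. In GFP- cells 2 did, both higher with odorant, against 3.41% of all probesets higher.

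These members were the H-side neighbours Olfr1508 and Olfr1509. From the values above, all 4 odorant GFP- arrays of Olfr1508 (12.75 to 13.86) exceeded all vehicle GFP- arrays (11.61 to 12.68), as did those of 2.24% of all probesets. Its difference was 1.06 (SE 0.27, 95% interval 0.45 to 1.66, limma unadjusted p = 0.0028, adjusted p = 0.71). For Olfr1509 the groups overlapped, with odorant pool 3 (6.38) among the vehicle arrays. Its difference was 1.55 (SE 0.53, 95% interval 0.38 to 2.73, limma unadjusted p = 0.014, adjusted p = 0.71), at least 2.23-fold. Neither passed the correction, and without both pools numbered 4 the differences were 0.91 and 1.17.

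In GFP+ cells the intervals were wide. Olfr1509 differed by 0.78 (95% interval -0.25 to 1.81) and Olfr1508 by 0.71 (-0.44 to 1.86), with limma adjusted p = 1.0 for each. A fit with the replicate number as a block pairs pools of different mice here, a pairing that the labels do not give. The r of centred values between GFP+ arrays of the same number was only -0.034 to 0.25. With this block the intervals were 0.074 to 1.49 for Olfr1509 and 0.059 to 1.37 for Olfr1508. There limma's unadjusted p was 0.034 and 0.036, and its adjusted p 0.999 for each. Of all 22206 probesets 0 passed with this block, and the share with an unadjusted p under 0.05 is not given. Olfr1507 was not above background in either GFP+ group by its mean, so no difference is given for it there. Olfr1510, Olfr1511, Olfr1512 and Olfr1513 lay between -0.25 and 0.14 in GFP+ cells and between -0.15 and 0.29 in GFP- cells. Olfr1507 differed by 0.22 in GFP- cells (95% interval -0.32 to 0.75). The interaction, which is the difference between the odorant effects of the fractions, was called for 0 of 7 members and 0 of all probesets (0%; 4.92% had an unadjusted p under 0.05). It was -0.77 for Olfr1509 (SE 0.79, limma adjusted p = 0.96) and between -0.34 and 0.21 for the others. Olfr1507 was left aside as its GFP+ groups were not above background. The vehicle GFP- mean of Olfr1509 (6.36) was not above background either (mean level 6.68). Its interaction thus holds a signal at background and does not measure a difference of odorant effects. With the pool as a block, limma gave Olfr1509 an SE of 0.29, an unadjusted p of 0.022 and an adjusted p of 0.72. All comparisons of treatment and of fraction reuse the same 16 arrays, so their values for a gene are not independent of each other.

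**Figure D5:**
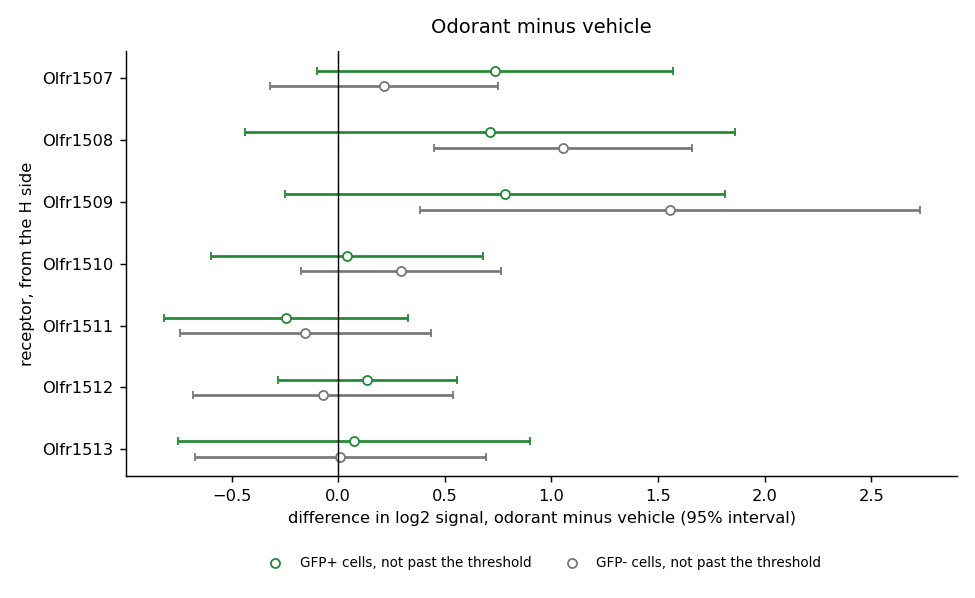
Difference in log2 signal between odorant and vehicle mice (horizontal axis) for each receptor in GFP+ cells (green) and GFP- cells (grey), with 95% intervals from limma on 4 against 4 arrays. No point passed an adjusted p of 0.05; the intervals of Olfr1508 (0.45 to 1.66) and Olfr1509 (0.38 to 2.73) in GFP- cells lie above 0.

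Genes whose signal followed the members most closely over the 16 arrays were mostly other odorant receptors. For Olfr1507 these were Olfr825 (r = 0.994), Olfr1228 (0.994) and Olfr794 (0.992), and for Olfr1509 Olfr1281 (0.971), Olfr729 (0.967) and Olfr727 (0.967), the last pair also on chromosome 14. For Olfr1508 they were Olfr1276 (0.950), Olfr1211 (0.949) and Olfr1275 (0.916), all on chromosome 2. Over the 16 arrays such an r mostly repeats the difference between the fractions. After centring on group means the same 3 genes led for Olfr1508 (Olfr1211 0.914, Olfr1276 0.890 and Olfr1275 0.859), while Olfr1509 was followed by Olfr169 (0.909), Olfr1195 (0.908) and Cd55 (0.857). No receptor was among the 3 closest to Olfr1507 after centring (Cdc42bpa 0.825, St7 0.812 and Zfp369 0.793).

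For the members beyond the T cell receptor segment the closest genes were mixed. Over the 16 arrays they were Olfr1036 (0.957), Olfr1166 (0.946) and Srxn1 (0.945) for Olfr1511, and Olfr165 (0.935), Olfr147 (0.935) and Ppme1 (0.923) for Olfr1512. For Olfr1510 they were Naglu (0.925), Olfr960 (0.863) and Endog (0.851), and for Olfr1513 Helq (0.884), Rad51d (0.881) and Fam81a (0.866). After centring they were Naglu (0.906), Flot1 and Coro1b for Olfr1510, Sec13 (0.847), Lyz1 and Olfr1166 for Olfr1511, Mad2l2 (0.875), Tubg2 and Chn1 for Olfr1512, and Olfr690 (0.878), Helq and Rad51d for Olfr1513. These are ranks of r over arrays that share pools, and are given as a description.

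The genes on either side of the cluster that are not receptors did not follow the sort. Dad1, a subunit of the oligosaccharyltransferase that lies on the H side, differed by -0.03 over both treatments (95% interval -0.24 to 0.18, limma adjusted p = 0.85). Mettl3, the catalytic subunit of the RNA adenosine methyltransferase on the far side, differed by 0.24 (95% interval -0.019 to 0.51, limma adjusted p = 0.16). Sall2, also on the far side, was at background on all 16 arrays, and Gm36448, on the Olfr1507 side, had no probeset. The distances of these genes from the cluster are not given, and T cell receptor segments were not counted among them.

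Most regulators of receptor choice did not pass the test between the fractions. Of 24 genes measured of a list of 25, limma called 4 higher in GFP+ cells and 1 lower over both treatments, against 13.4% and 12.3% of all probesets. The median difference was 0.065, against 0.096 for all probesets. Lbr, which anchors heterochromatin at the nuclear envelope, was lower by -1.01 (SE 0.18, limma adjusted p = 4.3e-04). Adcy3, the odor-responsive adenylyl cyclase (0.32, adjusted p = 0.0049 by limma), and the transcription factors Emx2 (0.33, 0.022) and Ebf1 (0.27, 0.024) were higher. Rtp2, a receptor chaperone named after its value was seen, was the 4th (0.26, 0.031). Lhx2, which binds receptor enhancers, differed by -0.07 (limma adjusted p = 0.63), and its cofactor Ldb1 by -0.14 (0.21). With vehicle alone 5 of the 24 were higher and 1 lower (7.76% and 9.97% of all probesets), and with odorant alone 0 and 1 (3.57% and 7.84%).

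Among markers of the zones of the epithelium 2 were called higher and 1 lower, beside the same 13.4% and 12.3% of all probesets. Of 11 with a probeset of 12, 2 of them (Aldh1a7 and Msx1) at background on all 16 arrays, limma called Ncam2 (0.40, adjusted p = 0.0070), an adhesion molecule of ventral neurons, and Nrp2 (0.46, 0.013), a guidance receptor of the same zones, higher, and Robo2 (-0.39, 0.020), a guidance receptor enriched in dorsal neurons, lower. In odorant mice alone 0 of the 11 passed (Ncam2 0.27, Nrp2 0.24 and Robo2 -0.39, with limma adjusted p of 0.30, 0.46 and 0.26), and in vehicle mice 3 did, all higher. Of the NFI transcription factors, which act in zonal receptor choice, Nfix differed by 0.32 (limma adjusted p = 0.095), Nfia by -0.15 (0.57) and Nfib by 0.07 (0.79). The dorsal markers Nqo1 and Acsm4 differed by -0.06 and -0.0007. The median of the list was 0.057. The difference of Olfr1507 was larger than that of any gene of either list.

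Markers of other cells moved with the sort and are given beside the receptors. The counts are over both treatments, where 13.4% of all probesets were called higher and 12.3% lower. Limma called 11 of 13 immune markers lower in GFP+ cells (median difference -4.78). Their summed log2 signal was 80.27 to 88.00 in vehicle GFP+ and 139.19 to 157.82 in vehicle GFP- cells, and 74.97 to 81.72 and 136.21 to 155.10 with odorant. In vehicle GFP+ cells 7 of them were at background, and 8 in odorant GFP+ cells. All 8 microvillar and tuft cell markers were lower (median -3.31), as were 7 of 10 sustentacular, 3 of 6 Bowman gland and 6 of 7 globose basal and dividing cell markers. Chat, Sox10, Neurog1 and Cdk1, counted here as lower, were at background on all 16 arrays, so their differences are between background signals. Of the 15 immature neuron markers 9 were lower, with sums of 169.47 to 172.50 in vehicle GFP+ and 191.92 to 196.15 in vehicle GFP- cells, and 170.00 to 171.33 and 190.18 to 195.68 with odorant. The 1 red blood cell marker with a probeset was lower (-1.73). Of 6 vascular and fibroblast markers, all at background in every group, 1 was called lower. The 5 horizontal basal cell markers were at background in every group. Of 15 mature neuron markers 6 were higher (median 0.17), while Omp differed by 0.07 (limma adjusted p = 0.51). Of 9 activity-dependent genes 7 were higher, a list that holds S100a5, by which the cells were sorted. The part of these cells in the differences of the receptors was not tested. With odorant against vehicle, limma called none of the genes of these lists in either fraction.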

How the data were processed

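The deposited values are log2 probeset signals of Clariom S arrays. Per the submitters' processing notes the authors used Affymetrix Expression Console; its version and how it normalized and summarized the probes are not known here. No further scaling was applied, and 6640 control probesets were left out. The background level of an array was the 95th percentile of its 23 antigenomic probesets. A fold against a group not above it is a lower bound, with that level in place of lower values.

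Each comparison was fitted over all 22206 probesets with limma 3.58.1 (lmFit and eBayes in R 4.3.3). Tests were two-sided, and p-values were adjusted by Benjamini-Hochberg, with a threshold of 0.05. The odorant and vehicle fits used 8 arrays, and those over both treatments and of the interaction 16. SE and intervals are limma's, SD is over 4 arrays, and the number of arrays limits precision. The fit was tested on simulated data with independent noise on each array, so no effect shared by the fractions of a pool. Of 50 shifts of 1 log2 unit it recovered 30 for odorant in GFP+ cells, 28 in GFP- cells and 15 for the interaction. Of 50 shifts of 2 log2 units it recovered 47, 48 and 43. The 2 fractions of a number were taken as 1 pool from the count of mice. Their r of centred values was 0.11 to 0.16 with vehicle and 0.014 to 0.36 with odorant. Between treatments of the same number r was -0.10 to 0.30 in GFP- and -0.034 to 0.25 in GFP+ cells, the highest for number 4. The main fits did not pair treatments by number, but the replicate block did so in the comparisons of treatments within a fraction. Alternatives were quantile normalization, array medians subtracted, a filter on dim probesets, an intensity trend, the replicate block, a shared spread and single pools left out.

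Named besides the members were S100a5, Omp, Kirrel2 and the 2 nearest other genes on each side, T cell receptor segments aside. The 3 genes closest to each member by Pearson r were also named, before and after centring. These closest genes had no Gm or Rik symbol and were above background on at least 4 arrays. Of the choice and zone lists the genes with the 4 smallest p were named. Eif2s3y, Rtp2, Lhx2, Ldb1, Nqo1, Acsm4, Nfia, Nfib, Aldh1a7, Msx1, Chat, Sox10, Neurog1 and Cdk1 were added after their values were seen. The members and lists were chosen with earlier results of these data known. Kirrel2, an activity-dependent adhesion molecule, was higher in GFP+ cells over both treatments (1.33, limma adjusted p = 5.5e-04) and in vehicle mice (1.60, 1.0e-04), but did not pass in odorant mice (1.06, 0.16). With odorant it differed by 0.96 in GFP- cells (95% interval 0.18 to 1.74, limma adjusted p = 0.71). Python 3.11.15 and matplotlib 3.10.9 made the plots.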

Additional observations from a re-analysis of the deposited data

Results flagged for a closer look

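One array of Olfr1510 stood apart from the others of its group. In GFP+ cells of vehicle mice pool 2 was at 11.90 and the other 3 arrays at 12.82 to 12.97, so the gap below them was 0.864 of the whole range, above the 95% limit that Dixon's test sets for 4 values. Chance gives about 1 such group in 20, and 28 groups of the 7 receptors were examined. Without that pool the difference between the fractions in vehicle mice was 0.94 (limma adjusted p = 0.035), against 0.63 (adjusted p = 0.14) with it. Olfr1510 was lower in GFP+ than in GFP- cells of that pool (-0.32). With single vehicle pools left out, limma's adjusted p ran from 0.035 to 0.45. In the same pool and fraction Olfr1508 (12.45), Olfr1509 (9.99) and Olfr1512 (7.47) were also the lowest of their group.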

How the results depend on the processing

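The directions of the fraction differences held for all 7 members under every alternative, and the calls of Olfr1507, Olfr1509 and Olfr1511 were kept in each. With array medians subtracted, 7 members passed in vehicle mice and 7 in odorant mice, against 4 and 4; the subtraction moved the median of all probesets from 0.082 to 0.45 and from 0.10 to 0.42. Without single pools the members called ranged from 3 to 5 in vehicle mice, from 3 to 5 in odorant mice and from 5 to 6 over both treatments, and from 0 to 0 in GFP+ cells, in GFP- cells and in the interaction. The replicate block gave 5 members called in vehicle mice, 4 in odorant mice and 5 over both treatments, adding Olfr1508 in vehicle mice, and 0 in the comparisons of treatments; fitted with all 4 groups sharing the spread, limma's adjusted p of Olfr1508 in vehicle mice was 0.0498. Small odorant effects changed sign without single pools: in GFP+ cells Olfr1510 ranged from -0.21 to 0.25, Olfr1512 from -0.0078 to 0.25 and Olfr1513 from -0.23 to 0.50; in GFP- cells Olfr1511 from -0.32 to 0.095, Olfr1512 from -0.30 to 0.087 and Olfr1513 from -0.25 to 0.17. The interaction ranged from -0.67 to 0.080 for Olfr1508, from -0.45 to 0.20 for Olfr1511 and from -0.38 to 0.72 for Olfr1513. After quantile normalization the effect on Olfr1513 in GFP- cells was -0.012, against 0.0093. Without both pools numbered 4, chosen after the data were seen, the effects in GFP- cells were 0.039 for Olfr1511 and -0.14 for Olfr1513. The cause of these changes was not tested. A 99th percentile as background kept the number of arrays above it within 1.5 times for 7 of 7 members. Signals near background bound the falls of Olfr1507 and the rises of Olfr1509 from below only.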
